A study of Homo sapiens with 6 samples.

Results

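The 7 genes described here are PARP9, DTX3L, PARP10, PARP12, PARP14, ZC3HAV1 and TIPARP, a chosen set of interferon-linked members of the PARP family of ADP-ribosyltransferases together with the ubiquitin ligase DTX3L. They were taken by gene symbol from a deposited table of 60027 gene rows, in which each symbol had 1 row, and all 7 passed the filter of a mean of at least 1 TPM (a transcript level scaled to gene length and to the library total) that left 15755 genes for testing. The table holds 3 libraries in which SH3PXD2A-AS1, an antisense long noncoding RNA, was knocked down and 3 libraries of negative control cells, called vector control in the series text. Both groups are NCI-H292 cells, an established human line that came from a lung mucoepidermoid carcinoma. The sources used here do not describe the knockdown reagent, its delivery or the time of harvest, and nothing says whether the 3 libraries of a group were grown apart, so the p-values measure the spread between libraries, which may be technical.

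PARP enzymes move ADP-ribose from NAD onto proteins and nucleic acids. PARP1 and its close relatives build chains of ADP-ribose, while PARP10, PARP12, PARP14 and TIPARP add single units, and ZC3HAV1 and PARP9 have diverged catalytic domains. Many of these genes are transcribed in response to interferon, through transcription factors that bind the interferon-stimulated response element (ISRE).

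SH3PXD2A-AS1 itself was low and its groups overlapped, at 0.37, 0.68 and 0.44 TPM in knockdown libraries, against 0.96, 0.75 and 0.51 TPM in negative control libraries (means 0.497 ± 0.163 and 0.740 ± 0.225 TPM, SD, exact two-sided permutation p = 0.2, n = 3 each, where 0.1 is the smallest p possible). Knockdown replicate 2 lay above negative control replicate 3, so this gene does not check the labels, and the groups below carry the names the labels give them. Epithelial markers were abundant, with 7 markers summing to 4445 to 4634 TPM in knockdown and 3661 to 3789 TPM in negative control libraries, and 5 of 7 passed the test described below as higher, led by CLDN4, KRT7, CDH1 and KRT19, with 3 of 7 after median ratio scaling and without negative control replicate 2 or 3. Of 8 leukocyte markers, PTPRC, which marks leukocytes generally, was listed at 0 in every library, CD3E, a T cell marker, reached at most 0.07 TPM, and only CD68, a lysosomal protein gene, passed the test, at 56.1 to 60.3 TPM in knockdown and 36.6 to 42.2 TPM in negative control libraries. The summed level of the 8 was 58.4 to 63.5 TPM in knockdown and 38.5 to 45.0 TPM in negative control libraries. The 7 fibroblast and endothelial markers summed to 24.0 to 27.9 TPM in knockdown and 21.6 to 23.4 TPM in negative control libraries, with 0 of 2 tested markers past the adjusted threshold in limma and 1 at an unadjusted p under 0.05. Of all tested genes, 11.3% passed as higher. The part of the epithelial markers and of CD68 in the results below was not tested.

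All 7 genes were higher in knockdown cells, ZC3HAV1 and PARP9 the most and TIPARP the least. Every knockdown library lay above every negative control library for each of the 7, as for 26.8% of all tested genes, and each of the 7 passed the test (limma, Benjamini-Hochberg adjusted p under 0.05), as did 11.3% of all tested genes in that direction and 3.47% in the other. None of the 7 had all knockdown libraries below all negative control libraries, as 9.66% of tested genes did. A called rise of at least 0.5 on the log2 scale was found for 6 of the 7, and for 4.49% of all tested genes, and a called rise with means at least 2-fold apart for 2 of the 7, PARP9 and ZC3HAV1, and for 1.47% of all tested genes. The median log2 fold change of the 7 was 0.67 on the log2(TPM + 1) scale, beside 0.08 for all tested genes. Their summed level was 313 to 326 TPM in knockdown libraries and 184 to 200.0 TPM in negative control libraries, a ratio of means of 1.67. Bulk libraries cannot tell apart more RNA per cell and more cells that express a gene. Median ratio scaling, which takes a shared shift out of each library, left 6 of the 7 called higher. Of all tested genes, 6.42% were then called higher and 6.32% lower. TIPARP was still higher after this scaling but was no longer called.

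**Figure D1:**
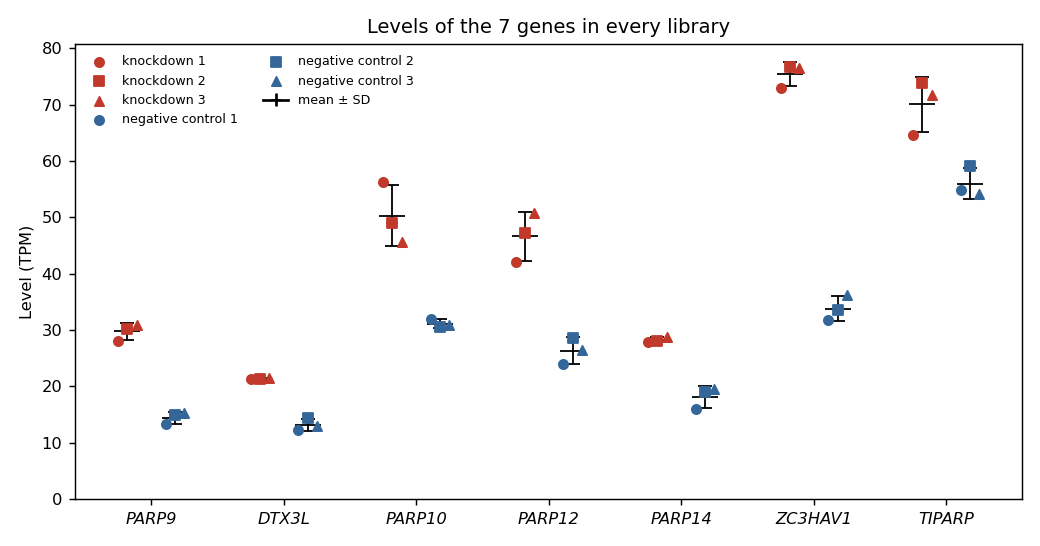
Level in TPM (y axis, linear) of the 7 genes in each of the 3 knockdown libraries (red, left of each pair) and the 3 negative control libraries (blue, right), with the mean and SD in black. The groups do not overlap for any gene, and the gap is narrowest, relative to level, for TIPARP.

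PARP9 and DTX3L encode partners in 1 complex, in which the macrodomain protein PARP9 binds ADP-ribose and DTX3L, a RING-domain E3 ligase of the Deltex family, ubiquitinates histones and viral proteases. PARP9 (ENSG00000138496) stood at 28.1, 30.2 and 31.0 TPM in knockdown libraries, against 13.2, 14.8 and 15.2 TPM in negative control libraries. The groups did not overlap. The ratio of means was 2.06 and the log2 fold change 1.00 (SE 0.07, limma adjusted p = 0.000652), and 1.89% of tested genes had a larger one. DTX3L (ENSG00000163840) stood at 21.3, 21.2 and 21.5 TPM in knockdown libraries, against 12.2, 14.3 and 13.0 TPM in negative control libraries. The 3 knockdown libraries were nearly equal for DTX3L, with a coefficient of variation of 0.593%, against 8.05% among negative control libraries. The log2 fold change of DTX3L was 0.66 (SE 0.07, limma adjusted p = 0.00236).

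The balance between the partner genes was also compared. The ratio of PARP9 TPM to DTX3L TPM was 1.32, 1.42 and 1.44 in knockdown libraries, against 1.08, 1.04 and 1.17 in negative control libraries, so the ratio was higher in every knockdown library. Its mean log2 difference was 0.35, and the exact two-sided permutation test gave p = 0.1 (n = 3 each), the smallest p that 3 against 3 libraries allow. Leaving out 1 library at a time gave differences of 0.31 to 0.39. Each scaling of whole libraries leaves this ratio as it is.

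The 2 genes lie head to head on chromosome 3. In the GENCODE 29 annotation of GRCh38, PARP9 spans 122527924 to 122564577 on the minus strand and DTX3L spans 122564238 to 122575203 on the plus strand. Their bodies share 340 bases, and 217 of those bases are exonic in both, which is 2.43% of PARP9 exon bases and 3.70% of DTX3L exon bases. The sources used here do not say whether reads were counted by strand, so reads from the shared bases cannot be told apart. PARP14 (ENSG00000173193) follows in the same cluster, from 122680618 to 122730840 of the plus strand, and PARP15 starts 2399 bases past the end of DTX3L, between DTX3L and PARP14.

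The start regions of the PARP9, DTX3L, PARP14 and PARP12 genes hold an ISRE core. Windows from 250 bases before to 50 bases after each annotated start, from RefSeq on GRCh38.p14, were given for 6 of the 7 genes, in 9 windows, and PARP10 had none. The search covered 3 short cores on both strands. The ISRE core is GAAA, any 2 bases and GAAA, the core of the gamma-activated site (GAS), another interferon-linked element, is TTC, any 3 bases and GAA, and the core of the xenobiotic response element (XRE) of the aryl hydrocarbon receptor is T, any base and GCGTG. The ISRE core was found in 3.57% of all 35116 windows, the GAS core in 7.66% and the XRE core in 5.51%. By gene, the ISRE core was in a window of 4 of the 6 genes with windows, 17 of 25 interferon-stimulated genes set beside them, 0 of 9 other PARP genes and 4.38% of all 27305 genes. The 7 genes were chosen as interferon-linked, so their ISRE count is no independent evidence. A count of 0 of 9 is near the share of all genes, so it does not set the other PARP genes apart from them. A match is a string of letters and not a bound site. PARP9 and DTX3L share the same 10 bases, chr3:122564332-122564341, which read GAAACTGAAA in the direction of DTX3L and TTTCAGTTTC in that of PARP9. They begin 41 bases before a PARP9 start and 6 bases before the DTX3L start, and the 2 windows share 137 bases. The windows below are shown 5′ to 3′ in the direction of each gene, since they show where these matches lie, with matches to the ISRE and GAS cores in capitals.
DTX3L, chr3:122564088-122564387, plus strand, with the ISRE core it shares with PARP9: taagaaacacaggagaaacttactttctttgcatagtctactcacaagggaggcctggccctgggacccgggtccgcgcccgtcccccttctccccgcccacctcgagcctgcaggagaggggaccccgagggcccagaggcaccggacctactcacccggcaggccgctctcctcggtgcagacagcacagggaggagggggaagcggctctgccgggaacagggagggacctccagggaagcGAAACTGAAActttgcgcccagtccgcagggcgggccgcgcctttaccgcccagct
PARP14, chr3:122680589-122680888, plus strand, with a GAS core before an ISRE core: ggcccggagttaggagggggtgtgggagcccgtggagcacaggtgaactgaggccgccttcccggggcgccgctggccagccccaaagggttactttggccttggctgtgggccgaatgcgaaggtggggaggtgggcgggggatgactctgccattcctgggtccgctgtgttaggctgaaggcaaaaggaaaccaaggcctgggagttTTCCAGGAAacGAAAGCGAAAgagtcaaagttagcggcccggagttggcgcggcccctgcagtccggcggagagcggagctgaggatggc
PARP12, chr7:140062902-140063201, minus strand, with an ISRE core: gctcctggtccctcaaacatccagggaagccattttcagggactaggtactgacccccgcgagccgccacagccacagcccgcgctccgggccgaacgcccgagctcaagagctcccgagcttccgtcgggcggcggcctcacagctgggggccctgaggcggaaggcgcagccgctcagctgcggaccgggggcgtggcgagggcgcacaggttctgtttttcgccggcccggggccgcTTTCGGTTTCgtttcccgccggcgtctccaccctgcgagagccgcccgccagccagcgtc
ZC3HAV1, chr7:139109671-139109970, minus strand, with a GAS core: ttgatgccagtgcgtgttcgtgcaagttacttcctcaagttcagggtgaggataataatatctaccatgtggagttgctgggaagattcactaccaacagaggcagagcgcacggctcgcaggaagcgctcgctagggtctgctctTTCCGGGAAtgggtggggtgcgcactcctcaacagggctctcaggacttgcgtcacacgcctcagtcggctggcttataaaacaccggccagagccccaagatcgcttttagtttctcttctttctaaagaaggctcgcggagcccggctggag

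In the PARP14 window the GAS core starts 40 bases and the ISRE core 29 bases before the annotated start, and in the PARP12 window the ISRE core starts 10 bases before it. The ZC3HAV1 window holds a GAS core from 104 bases before the start, and no ISRE core in these 300 bases. The 3 TIPARP windows hold none of the 3 cores. Of the 2 PARP9 windows, the one further from the DTX3L start, which lies within the DTX3L gene body, holds none either. A GAS core lies in 1 of the PARP15 windows. A GAS core was thus found for 2 of the 6 genes with windows, 8 of 25 interferon-stimulated genes, 2 of 9 other PARP genes (PARP2 and PARP15) and 9.38% of all genes, so it does not set the 6 apart from other PARP genes.

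The neighbours of PARP9, DTX3L and PARP14 were examined next. Of 9 protein-coding genes within 200 kb of the 3, 7 were tested, and 0 rose and 1 fell in limma, beside 11.3% and 3.47% of all tested genes. At an unadjusted p under 0.05 there were 0 higher and 2 lower, beside 22.7% and 7.67% of all tested genes. With 7 genes, these counts do not set the neighbours apart from the background. Their median log2 fold change was −0.06. PARP15, a PARP with macrodomains like PARP14, stood at 1.26, 1.45 and 1.70 TPM in knockdown libraries, against 1.65, 1.46 and 1.51 TPM in negative control libraries. Its groups overlapped (log2 fold change −0.04, SE 0.15, limma adjusted p = 0.877). CSTA, which encodes the protease inhibitor cystatin A, was the gene that fell, to 65.9, 74.4 and 79.5 TPM in knockdown libraries, against 96.2, 88.2 and 88.0 TPM in negative control libraries (limma adjusted p = 0.0434). CSTA was called under 5 of 13 alternatives, and its limma adjusted p was 0.0710 to 0.124 when any library other than knockdown replicate 3 was left out and 0.104 with the replicate block.

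**Figure D2:**
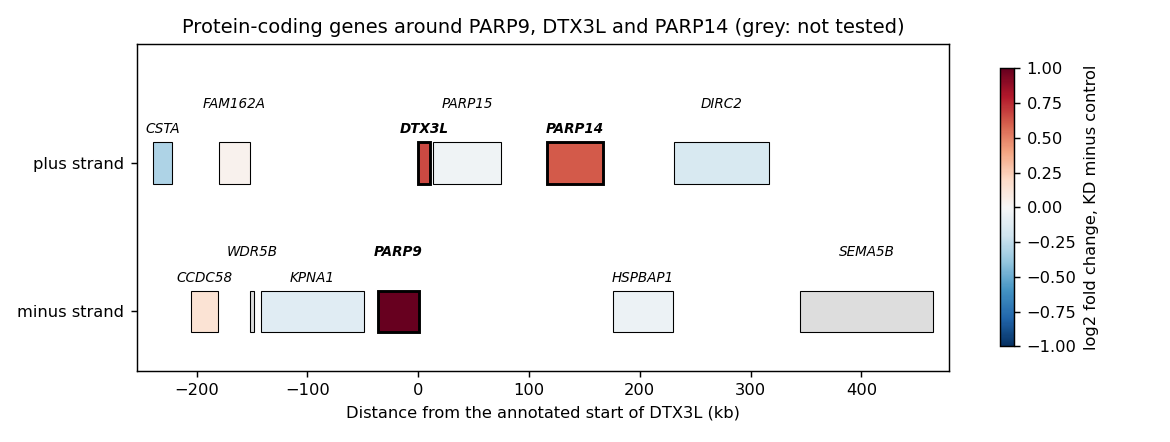
Protein-coding genes within 200 kb of the chromosome 3 cluster by distance from the annotated start of DTX3L in kb (x axis) and by strand (y axis), coloured by log2 fold change, knockdown (KD) minus negative control, with the 3 genes of the set outlined in bold and untested genes grey. PARP9, DTX3L and PARP14 are red (1.00, 0.66 and 0.61), and PARP15 between them is near white (−0.04).

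PARP14, PARP10 and PARP12 are mono-ADP-ribosyltransferases. PARP14, which carries macrodomains that bind ADP-ribose, is also known as a cofactor of STAT6 in interleukin 4 signalling. It stood at 27.9, 28.1 and 28.8 TPM in knockdown libraries, against 15.95, 19.04 and 19.53 TPM in negative control libraries. The knockdown libraries were close together, with a coefficient of variation of 1.59% against 10.7% in negative control libraries, and the log2 fold change was 0.61 (SE 0.08, limma adjusted p = 0.00535).

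PARP12 (ENSG00000059378), a CCCH zinc finger protein that restricts several RNA viruses, stood at 42.0, 47.1 and 50.7 TPM in knockdown libraries, against 23.9, 28.6 and 26.4 TPM in negative control libraries. The groups did not overlap, and the ratio of means was 1.77. The log2 fold change was 0.80 (SE 0.09, limma adjusted p = 0.00285). PARP12 spans 140023744 to 140063721 of chromosome 7, minus strand, 914 kb from ZC3HAV1.

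PARP10 (ENSG00000178685), on chromosome 8, encodes an enzyme that binds ubiquitin and restrains NF-kB signalling. It stood at 56.2, 49.0 and 45.6 TPM in knockdown libraries, against 32.0, 30.6 and 30.8 TPM in negative control libraries. Here the knockdown libraries were the more spread ones, with a coefficient of variation of 10.8% against 2.51% in negative control libraries, and knockdown replicate 1, the lowest of its group for 5 of the 7 genes, was the highest for PARP10. The log2 fold change was 0.67 (SE 0.08, limma adjusted p = 0.00346). PARP10 exons share 324 bases with the opposite-strand gene GRINA, or 5.37% of PARP10 exon bases. GRINA did not pass the test, at 198, 185 and 180.3 TPM in knockdown libraries and 182, 158 and 184 TPM in negative control libraries (log2 fold change 0.10, limma adjusted p = 0.363). The difference between the 2 genes was not tested.

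ZC3HAV1 (ENSG00000105939) encodes ZAP, also called PARP13, which binds CpG-rich RNA of viruses and recruits decay factors, and whose PARP-like domain has no known transferase activity. It stood at 73.0, 76.7 and 76.5 TPM in knockdown libraries, against 31.7, 33.5 and 36.2 TPM in negative control libraries. The groups did not overlap, and the ratio of means was 2.23. The log2 fold change was 1.14 (SE 0.06, limma adjusted p = 0.000231), the largest of the 7, and 1.38% of tested genes had a larger one. Gene-level values do not separate the long form of ZAP from the short form that lacks the PARP-like domain. Its gene spans 139043520 to 139109719 of chromosome 7, minus strand. Its neighbour and sequence relative ZC3HAV1L, which lacks the PARP-like domain, was under the filter, at 0.64, 0.40 and 0.43 TPM in knockdown libraries and 0.14, 0.43 and 0.32 TPM in negative control libraries, and these groups overlapped.

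TIPARP (ENSG00000163659), also called PARP7, is a target gene of the aryl hydrocarbon receptor whose product inhibits that receptor, and in mouse cells it also restrains interferon signalling through the kinase TBK1. It stood at 64.6, 73.9 and 71.7 TPM in knockdown libraries, against 54.8, 59.1 and 54.1 TPM in negative control libraries. The groups did not overlap, but the gap was narrow, with a ratio of means of 1.25. Its log2 fold change was the smallest of the 7, at 0.32 (SE 0.07, limma adjusted p = 0.0247), and 17.4% of tested genes had a larger one. The call depended on scaling and on single libraries. After median ratio scaling the log2 fold change was 0.22 (limma adjusted p = 0.0535), and the limma adjusted p was 0.0818 without knockdown replicate 2, 0.0741 without knockdown replicate 3, 0.0799 without negative control replicate 1 and 0.0875 without negative control replicate 3. TIPARP spans 156673235 to 156706770 of chromosome 3, plus strand, 33.9 Mb from PARP14, and shares 37 exon bases with the opposite-strand noncoding RNA gene TIPARP-AS1.

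The order of levels changed at the top. In knockdown libraries ZC3HAV1 averaged 75.4 ± 2.10 TPM and TIPARP 70.0 ± 4.85 TPM (SD, n = 3), and their ranges overlapped. In negative control libraries TIPARP came first at 56.0 ± 2.68 TPM, above ZC3HAV1 at 33.8 ± 2.26 TPM with no overlap. Below them came PARP10 and PARP12, at 50.3 ± 5.42 and 46.6 ± 4.38 TPM in knockdown and 31.1 ± 0.783 and 26.3 ± 2.34 TPM in negative control libraries. The ranges of PARP10 and PARP12 overlapped in knockdown and not in negative control libraries. Those of ZC3HAV1 and PARP10 overlapped in negative control libraries, at 31.7 to 36.2 and 30.6 to 32.0 TPM. PARP9, PARP14 and DTX3L were lowest, and PARP9 was level with PARP14 in knockdown libraries, at 29.7 ± 1.49 and 28.3 ± 0.450 TPM with overlapping ranges, while in negative control libraries PARP9 lay below PARP14, at 14.4 ± 1.03 and 18.2 ± 1.94 TPM. The share of TIPARP in the summed level of the 7 genes was 20.6% to 22.6% in knockdown and 27.7% to 29.8% in negative control libraries. That of ZC3HAV1 was 23.3% to 23.5% in knockdown and 16.8% to 18.5% in negative control libraries. The shares of PARP10, PARP12, DTX3L and PARP14 overlapped between groups, and that of PARP9 was 8.97% to 9.50% in knockdown and 7.20% to 7.77% in negative control libraries.

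**Figure D3:**
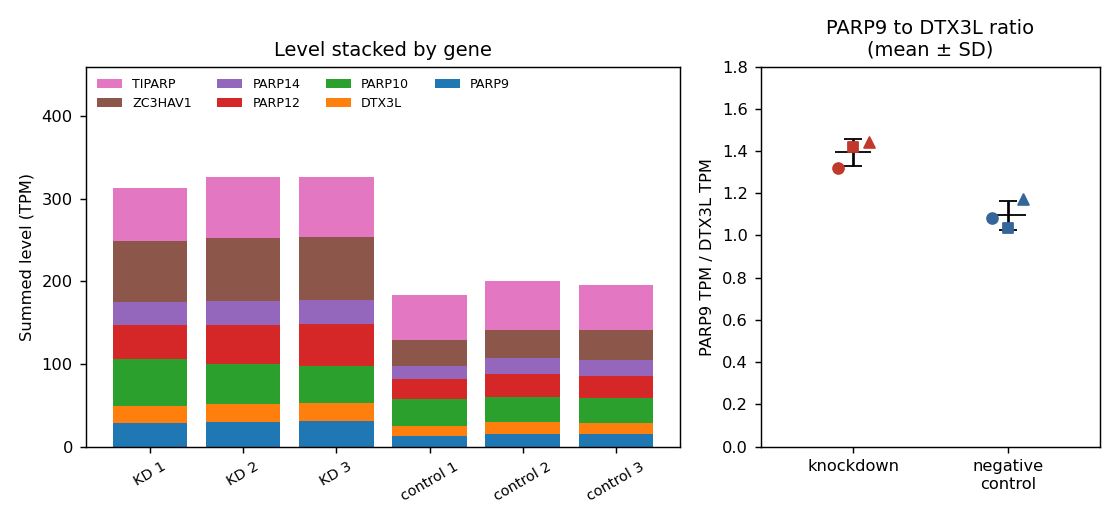
Left, level in TPM stacked by gene (y axis) in each library, knockdown (KD) before control. Right, PARP9 TPM divided by DTX3L TPM in each library with mean and SD. The stacks reach 313 to 326 TPM in knockdown and 184 to 200.0 TPM in negative control libraries, and the ratio is 1.32 to 1.44 in knockdown and 1.04 to 1.17 in negative control libraries.

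Of the 11 other PARP genes, all tested, PARP6 rose and PARP1 fell (limma). That is 1 of 11 in each direction, near the background of 11.3% higher and 3.47% lower for so short a list, with a median log2 fold change of 0.00 (−0.08 after median ratio scaling). PARP6, a mono-ADP-ribosyltransferase, was the gene that rose, at 68.2, 63.8 and 71.5 TPM in knockdown libraries against 43.2, 42.2 and 45.2 TPM in negative control libraries. The log2 difference, 0.63 (SE 0.06, limma adjusted p = 0.00136), lay within the range of the 7 genes. Of the 11 genes, 9 had start windows, and an ISRE core was found for 0 of these 9, beside 4.38% of all genes. PARP1, the chain-building enzyme of DNA repair, fell to 35.5, 37.7 and 36.7 TPM in knockdown libraries, against 46.0, 44.9 and 46.2 TPM in negative control libraries (limma adjusted p = 0.00895). PARP11 and PARP16 did not pass the test, at log2 fold changes of −0.32 and −0.16 (SE 0.15 and 0.10). For PARP11 every knockdown library lay below every negative control library, at 1.82 to 2.82 against 2.85 to 3.21 TPM. Such a separation was found for 9.66% of all tested genes, and the groups of PARP16 overlapped.

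**Figure D4:**
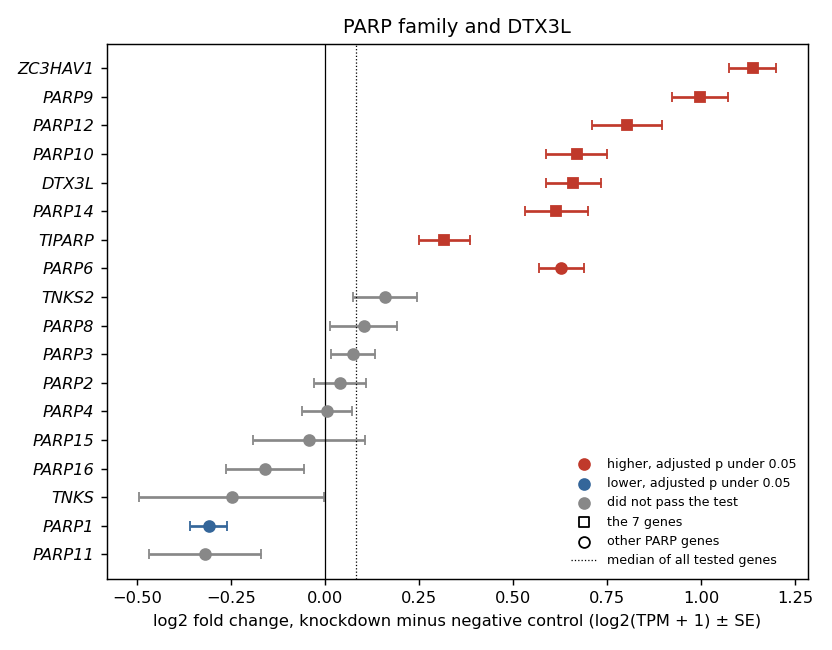
Log2 fold change, knockdown minus negative control, on the log2(TPM + 1) scale with SE (x axis) for the 7 genes (squares) and the 11 other PARP genes (circles), coloured by the limma call. The 7 genes run from 0.32 for TIPARP to 1.14 for ZC3HAV1, and among the other PARP genes PARP6 (0.63) and PARP1 (−0.31) passed the test.

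The genes that remove or read ADP-ribose gave counts near the background. Of 6 tested genes for enzymes that remove or degrade ADP-ribose, 0 passed in limma, with 1 higher and 1 lower at an unadjusted p under 0.05, and after median ratio scaling 1 fell, NUDT16. Of 6 tested genes for proteins that bind it, 0 passed in limma under either scaling, with 1 higher at an unadjusted p under 0.05. Of all tested genes, 14.8% were called in either direction and 30.4% had an unadjusted p under 0.05, so lists this short could hold no call without differing from it. The medians of the lists were 0.11 each, beside 0.08 for all tested genes. ADPRH, an eraser of ADP-ribose on arginine, stood at 1.99, 1.53 and 2.77 TPM in knockdown libraries against 0.79, 0.83 and 1.18 TPM in negative control libraries (log2 fold change 0.67, SE 0.20, limma adjusted p = 0.0717). Its groups did not overlap, and it was named after its values were seen. The other Deltex genes DTX2, DTX3 and DTX4 had log2 fold changes of 0.03 to 0.08 (−0.07 to −0.01 after median ratio scaling), and 0 of the 3 passed in limma, also at an unadjusted p under 0.05 (0 of 3), while DTX1 was under the filter.

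NAD is the substrate of PARP enzymes. Of 8 tested genes for its supply and use, 1 rose and 1 fell (limma), near the background of 11.3% and 3.47%, with a median log2 fold change of −0.08. NAMPT, the rate-limiting enzyme of NAD salvage, stood at 140.2, 167 and 152 TPM in knockdown libraries, against 164, 179 and 162 TPM in negative control libraries (limma adjusted p = 0.254). NAPRT, which starts NAD synthesis from nicotinic acid, was not called either, at a log2 fold change of 0.16. NMNAT2, which makes NAD from its mononucleotide, rose by 0.48 on the log2 scale (SE 0.09, limma adjusted p = 0.0162). That call was lost without knockdown replicate 3, negative control replicate 2 or negative control replicate 3, at limma adjusted p-values of 0.0544, 0.0519 and 0.0605. NNMT, which methylates nicotinamide and so removes it from salvage, fell to 36.1, 35.6 and 36.8 TPM in knockdown libraries, against 67.6, 77.7 and 58.3 TPM in negative control libraries (log2 fold change −0.88, SE 0.10, limma adjusted p = 0.00267).

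Among the partners of ZAP, TRIM25, a ubiquitin ligase that ZAP needs to block translation, rose to 82.8, 88.2 and 89.9 TPM in knockdown libraries, against 58.5, 56.3 and 62.3 TPM in negative control libraries (log2 fold change 0.55, SE 0.06, limma adjusted p = 0.00199). In all, 2 of 8 tested partners rose and 0 fell, beside 11.3% and 3.47% of all tested genes. The other was the helicase gene DDX17, which rose by 0.23 on the log2 scale (SE 0.05, limma adjusted p = 0.0308) and was not called after median ratio scaling, where its limma adjusted p was 0.11. The DDX17 call was also lost when any library other than knockdown replicate 1 was left out (limma adjusted p = 0.0725 to 0.0970). KHNYN, a nuclease cofactor of ZAP, and DHX30 were not called, at log2 fold changes of 0.12 and 0.14.

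Of the aryl hydrocarbon receptor pathway, 0 of 8 tested genes passed in limma, beside 14.8% of all tested genes, with 1 lower at an unadjusted p under 0.05, and the median log2 fold change was −0.11. After median ratio scaling 1 fell, ARNT, the receptor's partner (limma adjusted p = 0.0219). CYP1A1, the best known target of the receptor, stood at 9.49, 8.28 and 10.4 TPM in knockdown libraries, against 11.8, 10.0 and 11.9 TPM in negative control libraries (log2 fold change −0.24, SE 0.11, limma adjusted p = 0.196). The receptor gene AHR stood at 20.7, 23.6 and 21.2 TPM in knockdown libraries, against 19.8, 22.9 and 23.6 TPM in negative control libraries. These groups overlapped for both genes.

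Interferon genes gave the scale beside which the 7 can be read. Of all tested genes, 11.3% rose and 3.47% fell (limma). Of 11 tested receptors and factors of interferon signalling, 5 rose and 0 fell (limma), with a median log2 fold change of 0.34. The transcription factor genes IRF7, IRF1 and IRF9 were among them and rose by 1.05, 0.68 and 0.65 on the log2 scale (limma adjusted p = 0.00216, 0.00118 and 0.00954). Of 27 tested interferon-stimulated genes outside the PARP family, 26 rose and 0 fell, with a median log2 fold change of 1.76 and a highest value of 3.67. The 4 with the smallest p were IFIT2, BST2, OASL and ISG15, at log2 fold changes of 2.79, 3.21, 3.50 and 2.83. The list was chosen with results of these libraries known, so its direction is no independent evidence. ZC3HAV1 had a larger log2 fold change than 6 of the 27 and PARP9 than 3, while DTX3L, PARP10, PARP12 and PARP14 each exceeded 1 and TIPARP 0. The 7 genes thus sat at the low end of that list.

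**Figure D5:**
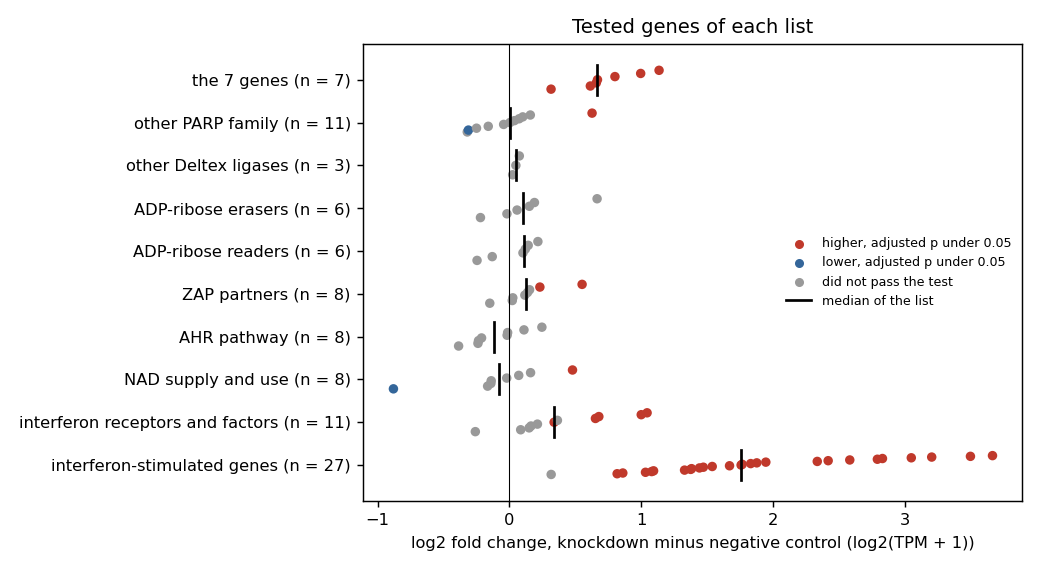
Log2 fold change, knockdown minus negative control, on the log2(TPM + 1) scale (x axis) for the tested genes of each list (y axis), coloured by the limma call, with the list median as a bar. The 7 genes have a median of 0.67, between 0.34 for interferon receptors and factors and 1.76 for interferon-stimulated genes, and the lists for other PARP genes, other Deltex ligases, ADP-ribose erasers and readers lie near 0.

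The genes whose pattern was most like each of the 7 were looked up over the 6 libraries among 10868 other genes with a symbol and a mean of at least 5 TPM, by the root mean square difference between log2 profiles set to the negative control mean. With 6 libraries in 2 groups, this measure mostly reads the size of the group difference. B2M, the light chain of MHC class I (0.04), and TNN (0.07) were among the 3 closest to PARP9. IRF1 was closest to DTX3L (0.05), followed by SLC44A2 and SMIM22. HSH2D, PMAIP1 and LGALS3BP were closest to ZC3HAV1 (0.05 to 0.08), and GCH1, PLSCR1 and UTP25 to PARP12 (0.05 to 0.06). AMH, CFB and LINC02381 were closest to PARP14, KRT81, PLEKHA7 and NEU4 to PARP10, and DDAH1, SMCHD1 and ITM2B to TIPARP. Among the 7 themselves, DTX3L was at place 10 for PARP14 (0.07) and PARP9 at place 10 for ZC3HAV1 (0.10), while DTX3L stood at place 167 in the list for PARP9 (0.25). The profile of PARP9 was thus nearer to that of ZC3HAV1 on another chromosome than to that of its head-to-head neighbour.

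Around the genes outside the chromosome 3 cluster, 4 neighbours were called, none of them firmly. Around PARP10, 3 of 15 tested protein-coding neighbours within 200 kb rose and 0 fell, beside 11.3% and 3.47% of all tested genes. Those that rose were NRBP2, MAF1 and SHARPIN, with log2 fold changes of 0.34, 0.20 and 0.31. SHARPIN was named after its value was seen. Around ZC3HAV1, 1 of 3 rose, UBN2, by 0.43 on the log2 scale (SE 0.10, limma adjusted p = 0.0303). Around PARP12, 0 of 1 passed in limma, and around TIPARP, 0 of 3, with 0 at an unadjusted p under 0.05 in both. None of these 4 rises was called after median ratio scaling or with the replicate block. Those of NRBP2, MAF1 and UBN2 were lost whichever library was left out (limma adjusted p = 0.0512 to 0.127), and that of SHARPIN was lost without any library other than knockdown replicate 3 (limma adjusted p = 0.0838 to 0.140).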

How the data were processed

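Polyadenylated RNA of 6 libraries was sequenced as paired reads after oligo(dT) selection, per the labels' protocols. The authors deposited TPM values per gene and library with a gene length column. Gene length is given in bases (another column of the deposited table), and how TPM used it is not stated. The tools fastp, HISAT and RSEM are listed in the submitters' processing notes, with no version or role, and the build listed there, GRCm38.p5, is a mouse build, while 58883 of 60027 IDs are human Ensembl IDs, so no coordinates were read from the table. Sequencing depth cannot be read from TPM, and precision was judged from the spread between libraries. Per library, 15432 to 15883 genes reached 1 TPM.

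Genes with a mean of at least 1 TPM (15755, out of 30849 genes listed above 0) entered a limma 3.58.1 fit in R 4.3.3. Values were log2(TPM + 1), the prior variance followed the mean, and there was no covariate. P-values are two-sided and adjusted over all tested genes by the Benjamini-Hochberg method, with calls at 0.05, and fold changes on this scale understate the change of low genes. Genes under the filter were fitted without it. Single values were compared by an exact permutation test (SciPy 1.17.1). On simulated data with the means and spreads of these 15755 genes, the test recovered 3, 22, 29 and 44 of 50 genes changed 1.2-, 1.5-, 2- and 4-fold and called 4 of 15555 unchanged genes.

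The 7 genes and all gene lists were chosen with earlier results of these data known. Named genes are the 7, SH3PXD2A-AS1, PARP1, PARP15, ZC3HAV1L, AHR, CYP1A1 and NAMPT, the tested genes with the 4 smallest p-values of any list that held a called gene, and the 3 genes most like each of the 7; genes outside this are examples of a count. Of the ZAP partner list, N4BP1 is not analysed here. The values of some genes that this rule or a list holds are not reported here. Positions came from GENCODE 29 and start windows from RefSeq. The fit was repeated with median ratio scaling, with 0.1 as the pseudocount, without the filter, at a minimum of 5 TPM, with TPM rescaled after dropping mitochondrial and ribosomal protein genes, a prior without trend, a replicate block, and leaving out each library.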

Additional observations from a re-analysis of the deposited data

How the results depend on the processing

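PARP9, DTX3L, PARP10, PARP12, PARP14 and ZC3HAV1 were called higher under all 13 alternatives, and their log2 fold changes ranged from 0.53 for PARP14 after median ratio scaling to 1.19 for ZC3HAV1 with 1 library left out. TIPARP was higher in each of the 13 and called in 5. It missed the threshold with no filter and with a prior without trend (log2 fold change 0.32 in both, adjusted p = 0.0523 and 0.0526), after median ratio scaling (0.22) and after mitochondrial and ribosomal protein genes were dropped before rescaling (0.24, adjusted p = 0.0614). Leaving out 1 library gave TIPARP 0.28 to 0.37, with calls lost in 4 of these 6 fits. Of all genes, 2327 were called, 1475 with no filter, 1466 with the replicate block and 1152 to 1633 with 1 library left out: 1170 without knockdown replicate 2, 1490 without knockdown replicate 3, 1353, 1157 and 1152 without negative control replicates 1, 2 and 3. Median ratio scaling changed the split of calls to 1012 higher and 996 lower. Deviations of same-numbered libraries correlated at 0.02, −0.01 and 0.04 over all tested genes. Values near 0 over all genes cannot exclude a pairing that acts on some genes, so whether replicate numbers pair the libraries is unknown. The replicate block called all 7 genes, each with a smaller SE than in the main fit. The neighbours' calls, 4 higher and 1 lower, came to 0 in both directions with the replicate block and without each library other than knockdown replicate 3. Depth is unknown, so no limit can be set for genes listed near 0 TPM.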

Other observations

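The negative control libraries differed among themselves in interferon-stimulated genes. Negative control replicate 1 was the lowest control library for 24 of the 27 tested interferon-stimulated genes and for 5 of the 7 genes of the set (PARP9, DTX3L, PARP12, PARP14 and ZC3HAV1), beside 38.4% of all tested genes. Knockdown replicate 1 was the lowest knockdown library for 5 of the 7 genes and for 14 of the 27, beside 43.3% of all tested genes. Without negative control replicate 1, each of the 7 remained higher in knockdown cells, and the call of TIPARP was lost. That call was also lost without knockdown replicate 2, knockdown replicate 3 or negative control replicate 3.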
